A study of Homo sapiens with 5 samples.

Results

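The cytosolic ribosome of human cells was followed here through the mRNAs of its protein subunits. Its genes were taken as the protein-coding genes whose symbol in GENCODE release 44 has the form of a cytosolic ribosomal protein (RPL, RPS, RPSA or RPLP followed by its number and, for some, a suffix), without RPS27L. The rule uses symbols only and no measured value. It found 84 genes among the 64252 gene identifiers of the count table, 53 of the large (60S) subunit and 31 of the small (40S) subunit, and 81 of the 84 had enough counts to be tested.

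RPE-1, an immortalized line of human retinal pigment epithelial cells, was transfected with 5 µM of a non-targeting control siRNA (siCtrl, 3 libraries) or of pooled siRNAs against FAM53C (siFAM53C, 2 libraries), with Lipofectamine RNAiMAX in both arms, and polyA RNA was collected 48 hours later. FAM53C has been tied to the kinase DYRK1A and to the passage from G1 into S phase, and the comparison asks which transcripts change when it is depleted. Libraries held 19260124 to 25615415 counts, and no source used here states whether the libraries of an arm came from separate cultures, so p-values measure only the spread between these libraries. The line is an adapted culture rather than native epithelium. KRT8 and KRT18, keratins of simple epithelia, and MITF and OTX2, transcription factors of the pigment epithelium, had 281 or more counts in every library. KRT7, another keratin, had 111 or more. RPE65, the visual cycle isomerase that defines the native cell, was at 0 in every library. Other markers of both kinds were low: the epithelial CDH1 and EPCAM reached at most 3 and 4 counts. Of the pigment epithelium, RLBP1, TYR and TTR reached at most 1, 2 and 0 counts, and BEST1 and PMEL 15 and 29. The mesenchymal markers VIM, CDH2 and FN1 had 5532 or more counts in every library.

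FAM53C itself was lower in both libraries of its siRNA. Its level, as counts per 1e6 counts scaled with TMM factors (CPM), was 60.9, 59.7 and 57.6 in siCtrl and 14.2 and 22.3 with the targeting siRNAs. The log2 fold change was -1.71 (SE 0.194, edgeR quasi-likelihood adjusted p = 0.00363). In a principal component analysis of log2 CPM over all tested genes, siCtrl 1, 2 and 3 lay at -31.5, -47.4 and 33.7 on the first component (39.8% of the variance), and siFAM53C 1 and 2 at 0.264 and 44.9. Cut at the widest gap, siCtrl 3 and siFAM53C 2 were on one side, called right here, and siCtrl 1, siCtrl 2 and siFAM53C 1 on the other, called left, although siFAM53C 1 lay near the middle. In the column names of the count table, both right libraries carry the number 3 and siCtrl 1 and siFAM53C 1 the number 1, while the sample titles number siFAM53C 2 as replicate 2. No source used here says what these numbers mark. Since the split was read from these same values, differences between the sides are given as description, without a test.

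A ribosome is built from ribosomal RNA and one copy of nearly every ribosomal protein, so the cell makes the proteins of both subunits in matched amounts. Ribosomal protein mRNAs are short and abundant. Most begin with a C followed by an unbroken run of pyrimidines, the 5' terminal oligopyrimidine (TOP) motif, through which mTORC1 and the RNA-binding protein LARP1 control their translation and stability as a group. Free ribosomal proteins also signal: RPL5 and RPL11, bound to 5S rRNA, can hold the ubiquitin ligase MDM2 and so stabilize p53 when ribosome assembly is disturbed.

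No ribosomal protein gene passed the test between siFAM53C and siCtrl. With edgeR's quasi-likelihood test at an adjusted p of 0.05 over all 15341 tested genes, 0 of the 81 members were called lower and 0 higher, against 3.96% of all tested genes called in either direction (3.47% lower and 0.489% higher). Before adjustment, 5 members had a p under 0.05 with a negative change and 0 with a positive one, against 10.5% and 6.61% of all genes. limma-voom called 0 members in either direction (3.35% of all genes lower and 0.482% higher). DESeq2 called 3 members lower, RPL6, RPL14 and RPL22L1 (6.74% of all genes with its adjusted p), and 0 higher (1.93%). With the library siCtrl 3 left out, edgeR called 5 members lower (RPL5, RPL6, RPL14, RPL22L1 and RPS23, against 5.91% of all genes), and 0 with any other single library left out.

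The members moved little as a set. Their log2 fold changes had a median of -0.05 and quartiles of -0.14 and 0.02, while all tested genes had a median of 0.02 and quartiles of -0.22 and 0.26. The estimate lay below 0 in 56 of the 81 members, against 48.2% of all genes, and 67 members lay within 0.25 of 0. Standard errors of single members had a median of 0.186, and a change of 0.25 is under 2 standard errors for the median member. Large subunit members had a median of -0.03 (51 tested) and small subunit members one of -0.08 (30 tested).

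**Figure D1:**
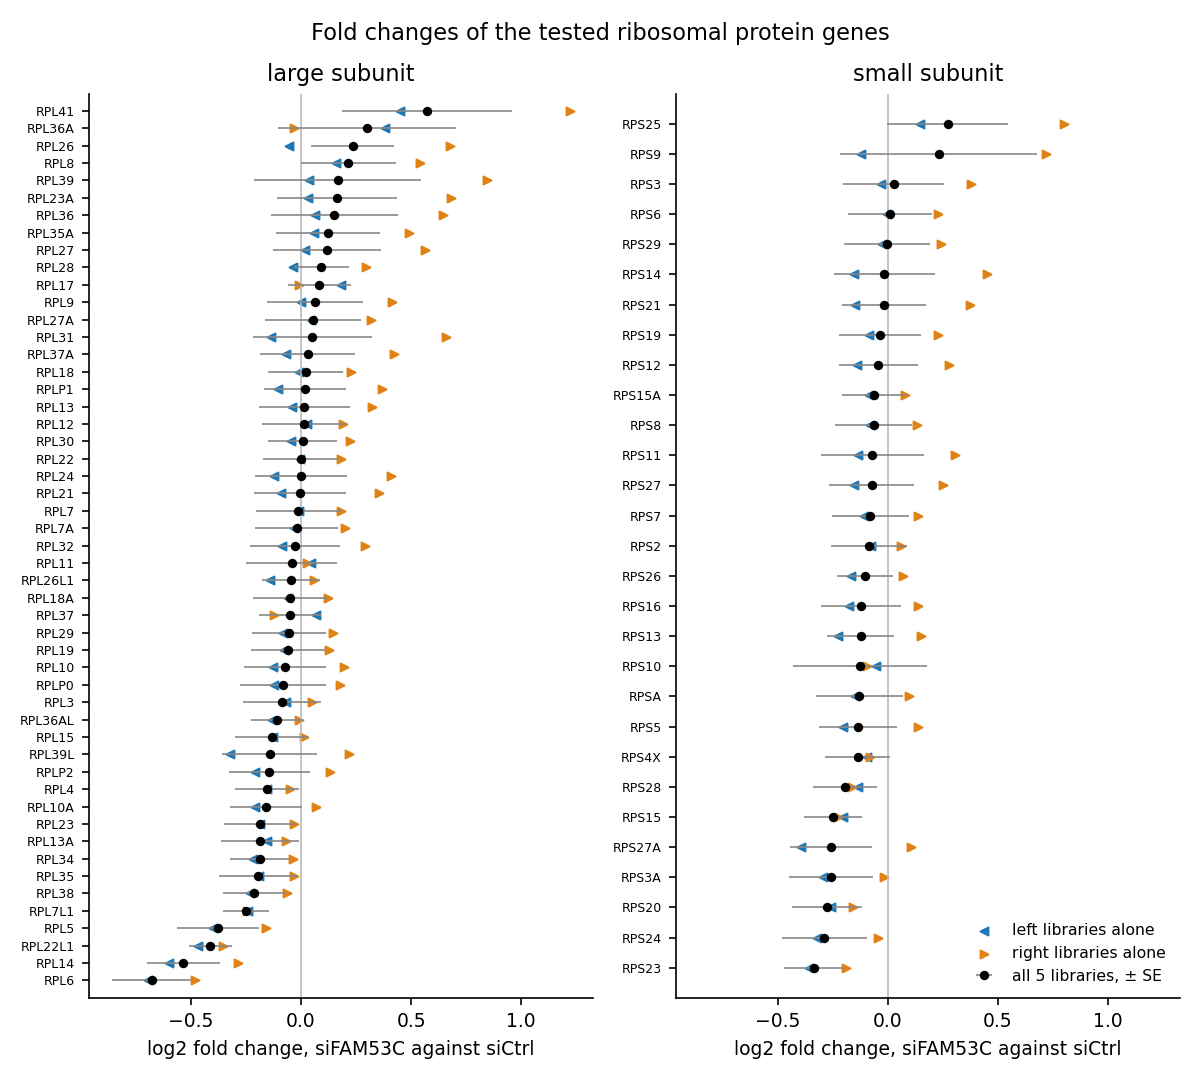
Log2 fold change of siFAM53C against siCtrl for tested ribosomal protein genes of the large (51 genes) and small (29 genes) subunit, from edgeR over all 5 libraries with its standard error (black), and within the left (blue) and right (orange) libraries alone. Most members lie within 0.25 of 0, and RPL6, RPL14 and RPL22L1 lie below 0 on both sides. Of all 81 tested members, 47 were below 0 on the left and above 0 on the right, a pattern not counted over all genes.

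The larger movement ran between libraries rather than between siRNAs. Ribosomal protein genes took 4.54%, 4.64% and 3.32% of all counts in siCtrl 1, 2 and 3, and 4.48% and 3.78% in siFAM53C 1 and 2. The 95% Wilson interval of each share spans at most 0.00929 percentage points to either side, which covers counting error only. The right libraries of both arms were thus the lowest, and the arms overlapped: 4.17% ± 0.737 (SD, n = 3) in siCtrl against 4.13% ± 0.494 (SD, n = 2) in siFAM53C, a difference of -0.0336 points (exact permutation test over the 5 libraries, two-sided p = 1, where 0.2 is the smallest p that 3 against 2 libraries allow). Within the left libraries siFAM53C was 0.108 points below the siCtrl mean (difference -0.108), and within the right libraries it was 0.466 points above, so the direction differed between the sides.

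**Figure D2:**
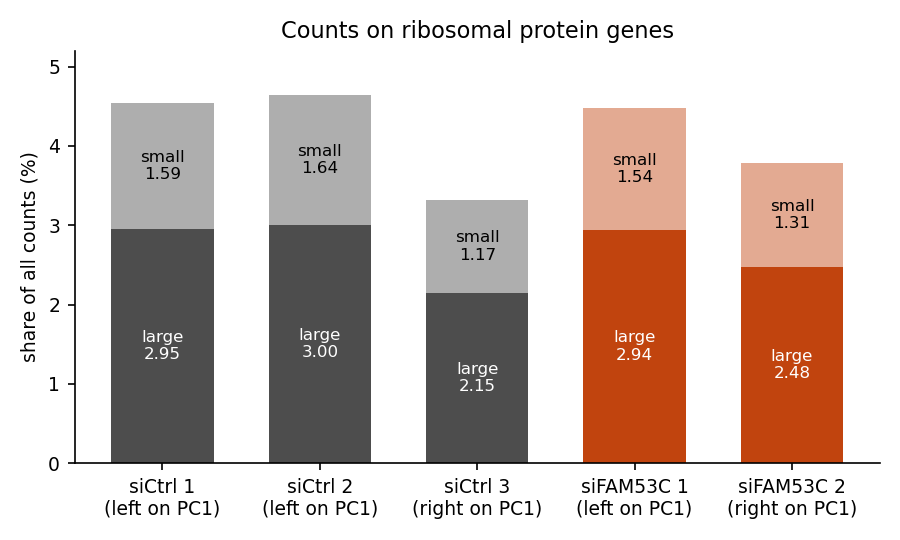
Percentage of all counts in each library that fell on ribosomal protein genes of the large (dark) and small (pale) subunit, for siCtrl (gray) and siFAM53C (orange). The summed share is 3.32% in siCtrl 3 and 3.78% in siFAM53C 2, the right libraries on the first principal component, and 4.48% to 4.64% in the left ones.

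The same held gene by gene. siCtrl 3 was the lowest of the 5 libraries for 56 of the 81 members, against 25% of all tested genes. siFAM53C 2 was the lowest for 19 members, against 19.2% of all genes, so a right library was the lowest for 75. siCtrl 1 was the highest for 26 members and siCtrl 2 for 43, against 14.9% and 20.6% of all genes. A left siCtrl library was thus the highest for 69. After each gene's mean over the libraries was subtracted, the median member stood at 0.18, 0.21 and -0.30 log2 units in siCtrl 1, 2 and 3 and at 0.07 and -0.14 in siFAM53C 1 and 2, while the median of all tested genes stayed between 0.01 and 0.02 in every library. The median member was 0.38 log2 units lower in right than in left libraries (difference -0.38, fitted with a term for the condition), with both subunits alike (-0.39 for the large and -0.37 for the small).

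**Figure D3:**
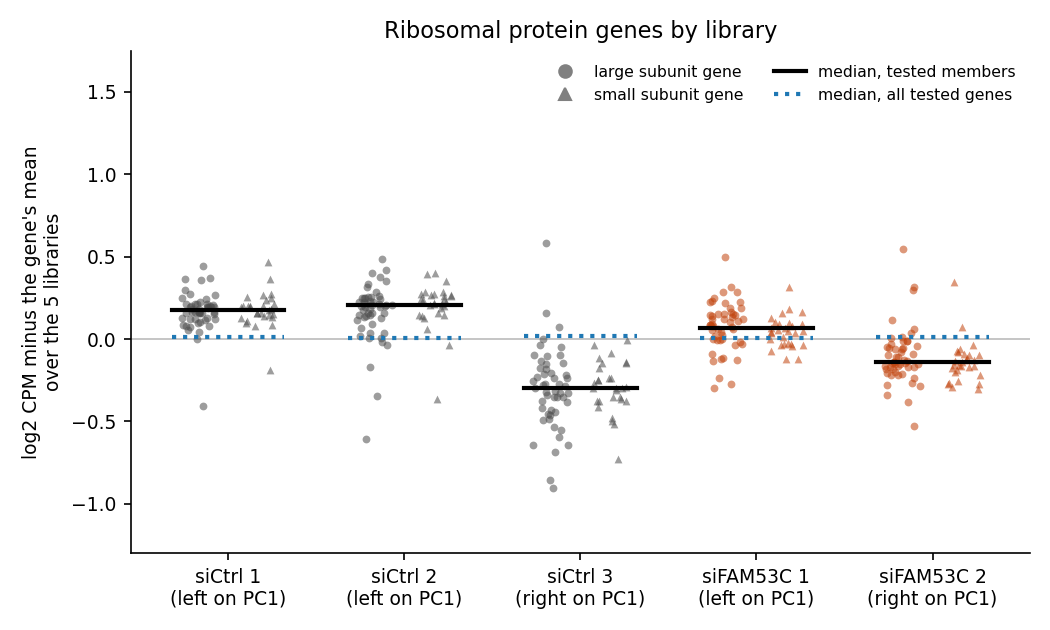
Log2 CPM of 80 tested ribosomal protein genes minus each gene's mean over the 5 libraries (circles large subunit, triangles small subunit), by library, with the median member (black line) and the median of all 15341 tested genes (dotted blue line). The median member sits at -0.30 in siCtrl 3 and -0.14 in siFAM53C 2 and above 0 in the other 3 libraries, while the median of all genes stays near 0.

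Transcript length moved with this difference between libraries. The 12034 tested protein-coding genes other than the members were grouped by the length of their canonical transcript. Their median difference of right minus left was -0.20 for the 588 genes under 1000 bases and -0.12 for 2085 genes of 1000 to 2000 bases. It was -0.04 for 4352 genes of 2000 to 4000 bases and 0.06 for 5009 longer genes. The median canonical transcript of the members was 785 bases, against 2953 for all tested genes. Mitochondrial ribosomal protein genes, with a median of 1221 bases, differed by -0.22 between the sides. The Spearman correlation of the difference between the sides with length was 0.24 over the 12034 genes and 0.04 over the 81 tested members. The part of length in the members' difference was not tested.

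Because siCtrl had 1 right library of 3 and siFAM53C 1 of 2, the split bears on the comparison of siRNAs. With a term for the side, the median member's log2 fold change was 0.02. That fit called 17.4% of all genes (10.7% lower and 6.76% higher). The side was read from these same values, so the fit's calls and adjusted p-values, here and below, are description only. The lowest adjusted p given below over the alternatives for RPL5, RPL6, RPL8, RPL14 and RPL22L1 came from this fit. Of the members it called RPL5, RPL6, RPL7L1, RPL14, RPL22L1 and RPS23 lower and RPL8 higher. Of the 81 members, 20 were below 0 and 11 above 0 on both sides, and 47 were below 0 on the left and above 0 on the right. These joint patterns were not counted over all genes. By single side, 67 members lay below 0 on the left and 58 above 0 on the right. Of the 15341 tested genes, 7439 and 7885 did so. Each side holds 1 siFAM53C library, so these within-side values carry no test.

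The members with the lowest unadjusted p were RPL6, RPL14, RPL22L1, RPS23 and RPL7L1. RPL22L1 and RPL7L1 were fixed for description as paralogs, and the other 3 were chosen after their values were seen. These 5 were also the members in which every siFAM53C library lay below every siCtrl library (18.8% of all tested genes did so), and no member had the opposite arrangement (16.7% of all genes).

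RPL6 encodes a protein of the large subunit, eL6 (ENSG00000089009, GRCh38 chromosome 12, 112405189 to 112418838, minus strand). Its CPM were 969, 1057 and 730 in siCtrl and 625 and 523 in siFAM53C. The lowest siCtrl value was again that of the right library siCtrl 3, and the arms did not overlap. The log2 fold change of -0.68 (SE 0.18) was the largest downward change of any tested member, with an edgeR adjusted p of 0.0969. Over the alternatives its value ran from -0.82 to -0.56 and its adjusted p from 9.08e-05 to 0.458. It was -0.69 within the left and -0.48 within the right libraries.

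RPL14 encodes eL14, another large subunit protein (ENSG00000188846, chromosome 3, 40457292 to 40468587, plus strand). Its CPM were 553, 544 and 398 in siCtrl and 362 and 327 in siFAM53C, again without overlap. The log2 fold change was -0.53 (SE 0.165, edgeR adjusted p = 0.148, and 0.0013 to 0.539 over the alternatives). Within the left libraries it was -0.60 and within the right -0.28.

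RPL22L1 is the paralog of RPL22, a large subunit protein that binds RNA and is known to restrain its paralog's expression (ENSG00000163584, chromosome 3, 170864875 to 170870208, minus strand). Its CPM were 153, 147 and 148 in siCtrl and 108 and 116 in siFAM53C. Unlike RPL6 and RPL14, its siCtrl libraries lay close together (149 ± 3.21, SD, n = 3), and the right library siCtrl 3 did not stand below the others. The log2 fold change was -0.41 (SE 0.0985, edgeR adjusted p = 0.0674, and 0.0017 to 0.422 over the alternatives), with -0.47 on the left and -0.35 on the right.

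RPS23 lies at the decoding center of the small subunit, where codon and anticodon are matched. Its CPM were 276, 277 and 221 in siCtrl and 216 and 194 in siFAM53C, so that siFAM53C 1 lay only just below siCtrl 3. The log2 fold change was -0.33 (SE 0.136, edgeR adjusted p = 0.262), and 374 of its exon bases overlap ATG10 on the other strand. RPL7L1, a paralog of RPL7, had 298, 328 and 305 CPM in siCtrl and 264 and 257 in siFAM53C (log2 fold change -0.25, SE 0.105, edgeR adjusted p = 0.282), and its arms did not overlap.

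**Figure D4:**
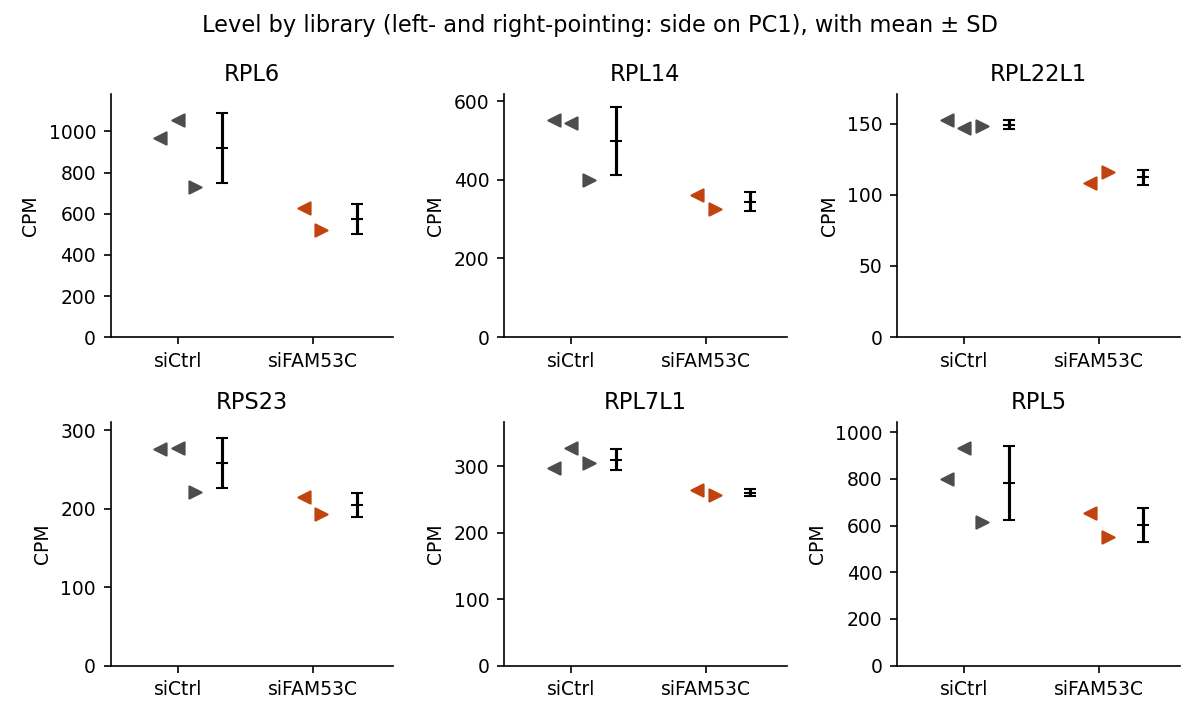
CPM in each library of the 5 ribosomal protein genes with an unadjusted p under 0.05 and of RPL5, for siCtrl (gray, 3 libraries) and siFAM53C (orange, 2 libraries); the direction of a triangle gives the library's side on the first principal component, and bars give the mean ± SD. The arms overlap in RPL5 (615 CPM in siCtrl 3, 654 in siFAM53C 1) and not in the other 5 genes.

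The TOP motif was looked up at the annotated starts of these genes. In the RefSeq promoter table (GRCh38.p14), 67 of the 84 members were listed, and 47 of the 67 (70.1%) had a C at an annotated start followed by at least 4 more pyrimidines, against 5.14% of all 27305 genes of the table. Windows of 30 bases, 10 before an annotated start and 20 from it, are shown for RPL6, RPL14, RPL22L1, RPS23 and RPL7L1. RPL22, RPLP0 and RPS6 were added as well-known TOP transcripts. Letters are in lower case, with the pyrimidine tract that begins at the start in capitals:
RPL6, chr12:112411423-112411452, minus strand: gtatcctcagtgaatcagaaccagaaaaag
RPL6, chr12:112409266-112409295, minus strand: gacggcgcgtgcactgtgttcctggtcctg
RPL14, chr3:40457329-40457358, plus strand: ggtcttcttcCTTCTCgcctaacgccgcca
RPL22L1, chr3:170870176-170870205, minus strand: ccgtagcttcCTCTCTgctctcgcggccga
RPL22, chr1:6199576-6199605, minus strand: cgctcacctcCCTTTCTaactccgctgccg
RPS23, chr5:82278335-82278364, minus strand: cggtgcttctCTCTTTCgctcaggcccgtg
RPL7L1, chr6:42879606-42879635, plus strand: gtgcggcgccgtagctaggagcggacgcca
RPLP0, chr12:120201092-120201121, minus strand: ggcgcgaggcCCTTCTCTCgccaggcgtcc
RPS6, chr9:19380217-19380246, minus strand: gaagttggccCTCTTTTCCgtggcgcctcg

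The low members did not share the motif. RPL14, RPL22L1 and RPS23 had tracts of 6, 6 and 7 pyrimidines, whereas neither listed start of RPL6 and not the start of RPL7L1 had one, which says only that these letters are not in these windows. Of the tested members, the 46 with the motif had a median log2 fold change of -0.02 and the 19 listed without it one of -0.10. Between the sides, the medians were -0.40 with the motif and -0.33 without it.

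RPL5 and RPL11, the proteins of the 5S RNP that can bind MDM2, did not move alike. RPL5 had 800, 932 and 615 CPM in siCtrl and 654 and 551 in siFAM53C, so the arms overlapped (log2 fold change -0.38, SE 0.186, edgeR adjusted p = 0.362). Its adjusted p ran from 0.0294, with a term for the side, to 0.81, and SNORD21 lies within its exons over 95 bases. RPL11 had 414, 398 and 287 CPM in siCtrl and 419 and 293 in siFAM53C (log2 fold change -0.04, SE 0.207, edgeR adjusted p = 0.951). In both arms of RPL11 the right library was the low one.

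The P stalk, which recruits and activates the GTPases of translation, is made of RPLP0 with dimers of RPLP1 and RPLP2 on a base that includes RPL12. None of these 4 passed the test, and their median log2 fold change was -0.03. RPLP0 had 2083, 2452 and 1571 CPM in siCtrl and 2074 and 1775 in siFAM53C (log2 fold change -0.08, SE 0.194). RPLP1 had 1005 ± 215 CPM in siCtrl (SD, n = 3) and 1018 ± 36.5 in siFAM53C (SD, n = 2), and RPLP2 405 ± 86.6 and 367 ± 32.5.

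Around the peptidyl transferase center, RPL3, RPL4, RPL8 and RPL10 had a median log2 fold change of -0.08 and 0 called. RPL8, singled out after its values were seen, had 932, 859 and 567 CPM in siCtrl and 999 and 824 in siFAM53C. Its log2 fold change was 0.21 (SE 0.215, edgeR adjusted p = 0.697), with 0.16 on the left and 0.54 on the right, and an adjusted p of 0.0214 with a term for the side (0.0214 to 0.957 over the alternatives). The 9 members at the rim of the exit tunnel had a median of 0.05 and 0 called.

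In the small subunit, the 6 members of the mRNA channel and decoding region had a median log2 fold change of -0.18 and 0 called. This median was the lowest of the structural groups of more than 2 members described here. The direction differed between the sides, with a median of -0.19 on the left and 0.06 on the right. RPS27A, made as a fusion with ubiquitin, had 479, 573 and 361 CPM in siCtrl and 399 and 389 in siFAM53C (log2 fold change -0.26, SE 0.187, edgeR adjusted p = 0.556), and its arms overlapped. RPS6, the substrate of S6 kinase through which mTORC1 activity is commonly read, had 990, 1049 and 706 CPM in siCtrl and 1015 and 826 in siFAM53C. Its right library was the low one in both arms.

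The balance between the subunits differed slightly and in the same direction in each library. Counts on small subunit genes were 0.537, 0.545 and 0.544 times those on large subunit genes in siCtrl and 0.526 and 0.528 times in siFAM53C, without overlap. The log2 ratio differed by -0.04 between the arms (exact permutation test, two-sided p = 0.2, the smallest p these libraries allow), and by -0.04 on each side. This ratio, unlike the summed share, did not follow the split of the libraries. Since the arms did not overlap, leaving out any one library could not change the sign of the difference. Taken instead as the difference of the median log2 CPM of the subunits, which weights genes equally, it differed by -0.13 between the arms (exact permutation test, two-sided p = 0.2). By library, small minus large was 0.027, 0.251 and 0.158 in siCtrl 1, 2 and 3 and 0.020 and 0.007 in siFAM53C 1 and 2. The siCtrl libraries were thus widely spread, and siFAM53C 1 lay only just below siCtrl 1.

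Among the 9 members in which mutations are long known to cause Diamond-Blackfan anemia, a failure of red cell production, 0 were called and the median was -0.08. Of 8 members that often serve as reference genes in quantitative PCR, 7 were tested and 0 called. Their median range over the 5 libraries was 0.52 log2 units, against 0.58 for all tested members and 0.67 for all tested genes. Among the siCtrl libraries alone the order was another. There the median SD of log2 CPM was 0.26 for these reference genes, 0.31 for all tested members and 0.22 for all tested genes. RPL13A had 1745, 1762 and 1300 CPM in siCtrl and 1574 and 1242 in siFAM53C (log2 fold change -0.19, SE 0.178), low in the right library of each arm.

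Paralogs of ribosomal proteins were mostly weaker than their partners. Per kb of coding sequence, RPL7 was at 741 CPM against 379 for RPL7L1, RPL22 at 615 against 367 for RPL22L1, and RPL39 at 665 against 84.6 for RPL39L. RPL26 at 45.4 against 60.4 for RPL26L1 and RPL36A at 20.3 against 288 for RPL36AL had the opposite order. Both RPL26 (360 bases) and RPL36A (333) share exon bases with another gene on the same strand, as given below. RPL22 (231 bases) and RPL39 (104), in pairs with the weaker paralog, share such bases too, and RPL7 does not. The paralogs RPL3L, known from heart and skeletal muscle, and RPL10L, known from testis, had 0 counts in all 5 libraries. A count of 0 allows up to 0.117 to 0.156 CPM at the depth of these libraries.

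The ratio of RPL22L1 to RPL22, a quantity chosen after the values were seen, was 0.571, 0.579 and 0.791 in siCtrl and 0.417 and 0.546 in siFAM53C. Both siFAM53C values lay below all siCtrl values, but siFAM53C 2 was close to siCtrl 1. The log2 ratio differed by -0.42 (exact permutation test, two-sided p = 0.2, the smallest possible), with -0.46 on the left and -0.53 on the right. Of the 5 pairs with counts in both members, RPL26L1 to RPL26 also reached p = 0.2 in that exact permutation test (difference -0.29), and the other 3 had p = 0.6.

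The levels of the members spanned a wide range. Per kb of canonical transcript, RPS2 (1992 CPM), RPLP0 (1802) and RPS15 (1395) were highest, and RPS10 (9.37), RPL36A (8.48) and RPS9 (1.88) were lowest of those tested. RPS2 and RPLP0 overlapped over the libraries. The order depends on the length used: RPL37 and RPL14 have canonical models of 7573 and 7136 bases with coding sequences of 291 and 645, and only 5 of the 10 highest members stayed among the 10 highest per kb of coding sequence. On that scale RPL41, whose coding sequence of 75 bases makes it the shortest member, was highest at 6026 CPM, followed by RPLP1 at 2954 and RPL13A at 2503, against a median member of 859.

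**Figure D5:**
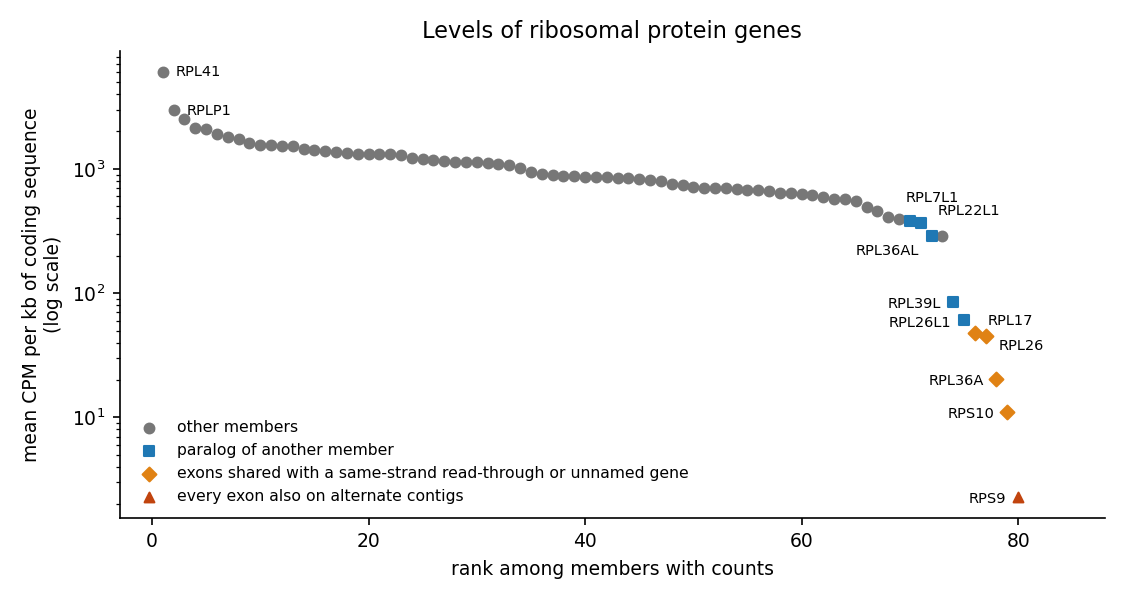
Mean CPM over the 5 libraries per kb of coding sequence, on a log axis, for 80 tested ribosomal protein genes ranked from highest to lowest. At the low end are 2 paralogs (RPL39L and RPL26L1, squares) and RPS9, whose every exon is also on alternate contigs (triangle). Diamonds mark only RPS10, RPL17, RPL36A and RPL26, low members that share exons with a read-through or unnamed gene on the same strand. Other members, the high RPS2 and RPL13A among them, also share exons with an unnamed gene on their strand and are drawn as circles.

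Several core members of the ribosome had very few counts. Sequence or exons that they share with another place in the assembly or annotation are given beside them. Whether such sharing lowers the counts was not tested. Of the 84 members, 72 had 1000 or more counts in every library and 11 had fewer than 1000 in every library. RPS18 and RPS9 have the sequence of every canonical exon also on alternate contigs of the hg38 assembly, of which 261 were searched. RPS18 had 0, 1 and 0 counts in siCtrl and 0 and 0 in siFAM53C. RPS9, a small subunit protein, had 27, 31 and 19 counts in siCtrl and 33 and 40 in siFAM53C. Both were among the 11 low members. RPL9, with 5 of 8 exons on such contigs, and RPL12, with 1 of 7, had more than 1000 counts in every library.

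Of the 84 members, 34 share exon bases with another gene on their own strand. High members are among them, such as RPS2 with 618 shared bases and RPL13A with 454. Low members among them were RPS10, RPL17, RPL36A and RPL26. RPS10 (80 to 177 counts) overlaps the read-through gene RPS10-NUDT3, RPL17 (445 to 767) overlaps RPL17-C18orf32, RPL36A (76 to 211) overlaps RPL36A-HNRNPH2, and RPL26 (286 to 566) overlaps ENSG00000263809. The paralogs RPL3L, RPL10L, RPL26L1 and RPL39L were also low, and they share no exon base with another gene on their own strand. Whether the authors' alignment gave reads of these genes to more than one place was not tested, and their values are uncertain as levels of the gene.

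RPL41, a short basic peptide of the large subunit, singled out after its values were seen, had 576, 333 and 226 CPM in siCtrl and 598 and 528 in siFAM53C, which overlapped (log2 fold change 0.57, SE 0.387, edgeR adjusted p = 0.542). The 1598 annotated pseudogenes of the members, processed copies left by reverse transcription, took 31825 to 47659 counts per library. Adding them to the members gave a share of 4.35% ± 0.754 in siCtrl (SD, n = 3) and 4.30% ± 0.517 in siFAM53C (SD, n = 2).

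The counts in the other lists stand against 3.47% of all tested genes called lower, and whether any list's share differs from that was not tested. Of 13 tested translation factors whose mRNAs carry a TOP motif, 1 was called: NAP1L1, a histone chaperone listed there for its TOP mRNA and not a translation factor itself, fell from 912, 972 and 907 CPM in siCtrl to 545 and 458 in siFAM53C (log2 fold change -0.89, SE 0.127, edgeR adjusted p = 0.00959). Of 50 ribosome biogenesis factors, 3 fell: GNL3, the nucleolar GTPase nucleostemin (log2 fold change -0.74), LTV1, which helps mature the small subunit (-0.77), and DDX18, a nucleolar helicase (-0.55). Of 14 tested RNA polymerase I subunits and cofactors, POLR1F fell (-0.98). All of these called genes lay below 0 on both sides.

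For mitochondrial ribosomal proteins, which build the separate ribosome of that organelle, 76 of 78 genes were tested, 36 lay below 0 and the median log2 fold change was 0.01. MRPL54 (-1.25, edgeR adjusted p = 0.029) and MRPL35 (-0.81, edgeR adjusted p = 0.0089) fell, and none was called higher. Of the listed TOP transcript regulators, among them LARP1, MTOR and RPTOR, 0 were called.

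The heptamer GACAAGA, searched on the transcript strand in canonical 3' UTRs, was present in 5 of the 84 members (RPS19, RPL37, RPL22L1, RPL13 and RPS23), or 5.95%, against 9.50% of 19170 protein-coding genes with a 3' UTR. The median 3' UTR was 166 bases in members and 1071 in those genes. The 5 members with it had a median log2 fold change of -0.05 and those without it one of -0.06.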

How the data were processed

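The authors trimmed paired reads with CutAdapt 2.10, aligned them with HISAT2 to hg38 and counted them per gene with featureCounts. The deposited table holds raw read counts, without normalization or filtering, and the GTF release used is not given in the sources used here. The labels give the Allprep kit for RNA extraction and the study's methods another kit. Those methods also speak of duplicate samples, whereas the labels give 3 control libraries, and no source used here explains the difference. All 5 columns were matched to samples by name. The analysis used R 4.3.3. Genes were kept by edgeR's filterByExpr at a minimum count of 10 and a minimum total of 15, libraries were scaled by TMM, and condition was the sole term of the fit, with robust dispersions (edgeR 4.0.16). p-values are from the quasi-likelihood test, adjusted by Benjamini-Hochberg over all 15341 tested genes, and the threshold was 0.05. The study's methods name DESeq2, which was run as an alternative (1.42.0), as was limma-voom (limma 3.58.1). Log2 CPM used a prior count of 2. Each tool was also run on simulated data, where none recovered every changed gene and each called some unchanged genes.

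Of the gene identifiers, 56105 had a symbol in GENCODE 44 and 8147 did not; the latter held 73623 to 149262 counts per library. Canonical exons of at least 30 bases were matched to 261 alternate contigs of hg38. HISAT2 was run as reverse-stranded per the study's methods, and the strand setting of featureCounts is not stated there, so the 27 of 84 members whose exons overlap an opposite-strand gene are uncertain. Replicates differed beyond sampling noise (chi-square of 9.79 to 47.7 per gene), so none was counted as a duplicate. The exact permutation tests were run over libraries with scipy 1.17.1.

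The members, lists and alternatives were chosen with earlier results of these data known. Members were named if past the threshold, if among the 3 highest or lowest by level, as paralogs, for a known role (RPL5, RPL11, the P stalk proteins, RPS6, RPS27A, RPL13A, RPS18) or if not measured. Genes of other lists were named only past the threshold, at most 3 a list. Others are said to be chosen after their values were seen. Values of single genes that are withheld are not reported here or drawn, although counts and medians over all members include them.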

Additional observations from a re-analysis of the deposited data

How the results depend on the processing

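The changes of FAM53C, RPL6, RPL14 and RPL22L1 kept their direction in every setting, whereas the median member and the difference in summed share took both signs. The count of members called lower, 0 with edgeR, was 3 with DESeq2, 3 without a filter on low counts (3.61% of all genes), 6 with a term for the library side, and 0 to 5 when single libraries were left out, 5 of them without siCtrl 3 (RPL5, RPL6, RPL14, RPL22L1 and RPS23; 5.91% of all genes). It was 0 under other scalings and limma-voom. The count called higher was 1 with the side term and 0 otherwise, also with libraries left out (0 to 0). Leaving out 1 library moved the median member between -0.19 and 0.03, the difference in summed share between -0.458 and 0.316 points (0.152 without siCtrl 1, 0.205 without siCtrl 2, 0.316 without siFAM53C 2), and the log2 ratio of subunits between -0.05 and -0.04. As a difference of median log2 CPM the last was -0.13. An arm of 1 library was assumed to vary like the other. The median was 0.02 with total counts alone, where that of all genes was 0.09, and -0.09 after a length and GC trend was removed. FAM53C stayed between -2.07 and -1.42 with single libraries left out.

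The replicate numbers did not pair the libraries by title (correlations of deviations 0.169 for number 1 and -0.285 for number 2). By column name both pairs were positive (0.169 for number 1 and 0.371 for number 3), but 2 pairs are too few to settle a pairing and no source states one. A replicate block by the numbers in the sample titles called 5 members lower (5.58% of all genes) and one by those in the column names called RPL6, RPL14 and RPL22L1 (3 members, 8.8%), with medians of -0.20 and 0.04.

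Members near 0 changed sign. RPL22 was at 0.00228 with DESeq2, 0.00894 with limma-voom, 0.00339 with RLE factors, 0.0512 with upper-quartile factors, 0.0721 with total counts, 0.0153 with at least 10 counts in every library, 0.0671 with a block by column names and 0.0737 with the side term. RPL11 was at 0.0101 with upper-quartile factors, 0.0313 with total counts, 0.0227 with the column block and 0.0376 with the side term. RPLP0 was at 0.0847 with the column block and 0.00282 with the side term. Without single libraries, RPL22 ran from -0.16 to 0.133, RPL11 from -0.33 to 0.19 and RPLP0 from -0.23 to 0.0756. Of the 10 highest members by level, 4 stayed with union exon length and 5 with coding length. The causes were not tested. Low counts limit the members under 1000 counts, and RPS18, RPL3L and RPL10L could not be tested.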
